A study of Mus musculus with 10 samples.

Results

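A set of 9 genes of the transforming growth factor beta (TGF-beta) pathway was followed in 2 mouse RNA-seq experiments on Cd163, a haemoglobin scavenger receptor of macrophages. The 9 genes were the ligands Tgfb1, Tgfb2 and Tgfb3, the receptors Tgfbr1, Tgfbr2 and Tgfbr3, the effector Smad3, the inhibitory Smad7 and the matrix gene Ltbp2. They were taken by name from a list, and all 9 were found by Ensembl identifier among the 55357 genes of each of the 2 count tables. In the first experiment, 3 hearts from mice labelled Cd163-/- and injected under the skin with recombinant mouse IL-10 were compared with 3 hearts from mice of the same label given saline. The dose of IL-10, a cytokine that damps inflammation, was 50 µg/kg per day in 12 injections from day 0 to day 27 after transverse aortic constriction, which loads the left ventricle by narrowing the aorta. Both heart groups are labelled Cd163-/-, and no wild-type or sham-operated heart was analysed here. The study's design puts surgery at 8 weeks of age in males, but the label of each heart names neither the surgery nor its day of collection. In the second experiment, peritoneal macrophages of Cd163-/- mice (2 libraries) were compared with those of wild-type mice (2 libraries). The mice were on a C57BL/6 background, and the macrophages were drawn out by thioglycolate for 3 days, selected by adherence, cultured overnight and treated with 100 nM dexamethasone, a glucocorticoid, for 48 h. Every macrophage library was dexamethasone-treated, so neither genotype had an untreated control.

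TGF-beta ligands are secreted in a latent form, bound to their own propeptide, and are tethered to the matrix by latent TGF-beta binding proteins (LTBPs). Once released by integrins or proteases, the ligand is bound by the type II receptor TGFBR2, which recruits and phosphorylates the type I receptor TGFBR1. SMAD2 and SMAD3 are then phosphorylated, join SMAD4 and act on genes in the nucleus, while SMAD7, itself a target of the pathway, blocks TGFBR1. TGFBR3 (betaglycan) presents ligand to TGFBR2, above all TGF-beta2, and its shed ectodomain traps ligand. LTBP2 belongs to the LTBP family by sequence and binds fibrillin-1, but unlike its relatives it does not hold latent TGF-beta. In the pressure-loaded heart the pathway is known for the activation of fibroblasts and the deposition of matrix, and in macrophages TGF-beta1 is a secreted product of cells that clear debris.

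Library depth was 13483335 to 14939465 gene-assigned reads per heart and 16729749 to 18619288 per macrophage library. Tests were made with edgeR's quasi-likelihood test on all genes with enough reads, 13718 in hearts and 13861 in macrophages, and a gene was called at a Benjamini-Hochberg adjusted p under 0.05. All 9 genes were tested in both tables. Whether the libraries of a group stem from different animals or cultures is not labelled. The spread that the p-values rest on is therefore that between libraries, which may be technical. As a check of the labels, Cd163 had 9 and 14 reads in knockout macrophages, against 352 and 205 reads in wild-type macrophages. In hearts, also labelled Cd163-/-, it had 37, 43 and 34 reads with IL-10 and 45, 47 and 57 reads with saline, with no wild-type heart to set them against. In CPM, read counts scaled to library size, Cd163 was thus at 2.39 to 3.16 in IL-10 hearts and 3.29 to 3.65 in saline hearts. These levels lie above the 0.448 and 0.778 CPM of knockout macrophages and below the 20.9 and 13.0 CPM of wild-type macrophages, in tables scaled separately. Mitochondrially encoded genes held 33.7 to 39.4% of heart counts and 2.43 to 3.12% of macrophage counts, so CPM of hearts and macrophages are not alike in scale. Summed macrophage markers were at 729 to 1209 CPM over all hearts and 25732 to 31476 CPM over all macrophage libraries, so the heart reads do not show the loss of Cd163, and where they lie relative to the deletion is not known from the tables. The genotype of the hearts therefore rests on their labels. Liver marker genes, checked because the RNA protocol names livers, summed to at most 1.18 CPM in any library.

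Sequence around the start site was read for the genes that changed and had a window, since these are the stretches in which promoter motifs were searched. The 300-base RefSeq windows (GRCm38.p6) below, each on the minus strand, belong to the 2 genes that were lower in IL-10 hearts, Tgfb2 and Ltbp2, and to the receptor gene that was higher in knockout macrophages, Tgfbr2. Capitals mark CAGAC, a motif that SMAD proteins bind (GTCTG on the other strand), and TATAAA.
Tgfb2, chr1:186705940-186706239: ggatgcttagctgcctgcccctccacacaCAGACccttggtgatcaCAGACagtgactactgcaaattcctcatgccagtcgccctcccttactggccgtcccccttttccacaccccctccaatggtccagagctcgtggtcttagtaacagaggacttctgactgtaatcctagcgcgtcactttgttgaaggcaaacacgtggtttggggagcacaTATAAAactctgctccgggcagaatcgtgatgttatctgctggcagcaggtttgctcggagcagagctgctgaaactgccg
Ltbp2, chr12:84876442-84876741: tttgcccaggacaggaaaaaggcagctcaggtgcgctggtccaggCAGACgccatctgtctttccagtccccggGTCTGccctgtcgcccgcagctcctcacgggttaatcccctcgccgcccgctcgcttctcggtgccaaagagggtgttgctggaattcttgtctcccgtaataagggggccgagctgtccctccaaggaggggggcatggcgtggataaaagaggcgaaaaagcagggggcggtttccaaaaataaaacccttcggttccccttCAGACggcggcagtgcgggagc
Tgfbr2, chr9:116175314-116175613: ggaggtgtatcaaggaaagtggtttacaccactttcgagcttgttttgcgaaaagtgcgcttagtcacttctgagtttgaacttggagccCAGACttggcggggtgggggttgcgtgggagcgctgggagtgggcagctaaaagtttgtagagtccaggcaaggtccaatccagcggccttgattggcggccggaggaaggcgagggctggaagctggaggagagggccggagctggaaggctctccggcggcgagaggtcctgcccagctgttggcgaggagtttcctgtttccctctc
CAGAC was present 2 times in the Tgfb2 window, 3 times in the Ltbp2 window (1 of them on the other strand) and 1 time in the Tgfbr2 window. It was also present in 49.6% of 32851 RefSeq windows of this length, so its presence is common. TATAAA was found 1 time in the Tgfb2 window, and 13.6% of all windows held it. Of the 9 genes, 6 had a window. Tgfb3, Tgfbr3 and Smad7 had none, so no motif was searched for in them. No CAGAC was found in the windows of Tgfb1 and Smad3, and Tgfbr1 had 1 window without it and 1 with it. The palindromic SMAD element GTCTAGAC (0.213% of all windows) and the AP-1 motif TGAGTCA (5.2%) were in no window of these 6 genes. GGCGCC (11.9%) was in 1 window of Tgfbr1.

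In IL-10 hearts, 1 of the 9 genes rose, 2 fell and 6 did not pass the test. Over all tested genes, 13.6% were called (6.86% higher and 6.7% lower), with a median log2 fold change of -0.01, against a median of -0.09 over the 9 genes. Ltbp2 and Tgfb2 were the genes that fell and Tgfbr3 the gene that rose, while Tgfb1, the type II receptor Tgfbr2 and both SMADs had log2 fold changes between -0.09 and 0.05. Under upper-quartile scaling the split of all called genes moved to 716 higher and 1120 lower, and under library size alone to 549 higher and 993 lower. Counts of the hearts are from whole tissue, in which fewer cells of a type and less RNA per cell cannot be told apart.

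Among the ligands, Tgfb2, the isoform of the developing heart's cushions and valves, was measured at 22.2, 19.6 and 20.6 CPM in IL-10 hearts, against 39.2, 29.9 and 52.7 CPM in saline hearts. Each IL-10 heart was below each saline heart, as for 15.8% of all tested genes, and the saline hearts spread more widely. Tgfb2 averaged 20.8 ± 1.32 CPM with IL-10 and 40.6 ± 11.4 CPM with saline (SD, n = 3 each), a log2 fold change of -0.97 ± 0.16 (SE; edgeR adjusted p = 0.00117). It was called in each fit that left out 1 heart, at log2 fold changes between -1.14 and -0.72.
Tgfb1, the main isoform of immune cells, was at 28.2, 24.3 and 34.2 CPM in IL-10 hearts, against 30.0, 22.6 and 31.6 CPM in saline hearts. The groups overlapped over nearly their whole range, and the log2 fold change was 0.04 ± 0.15 (SE; edgeR adjusted p = 0.883).
Tgfb3, an isoform best known for fusion of the palate, was at 38.2, 27.0 and 36.0 CPM in IL-10 hearts, against 37.1, 36.9 and 49.9 CPM in saline hearts. Saline heart 3 was the highest and IL-10 heart 2 the lowest, and the others lay together. The log2 fold change of -0.29 ± 0.15 (SE) did not pass the test (edgeR adjusted p = 0.205).

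Ltbp2 showed the lowest fold change of the 9 genes. It was at 15.3, 11.8 and 23.7 CPM in IL-10 hearts, against 53.3, 35.3 and 76.3 CPM in saline hearts. The groups did not overlap, and saline heart 3 stood above the other saline hearts, as it did for Tgfb2. The means were 16.9 ± 6.10 CPM with IL-10 and 55.0 ± 20.6 CPM with saline (SD, n = 3 each), with a log2 fold change of -1.70 ± 0.24 (SE; edgeR adjusted p = 0.000373). Without saline heart 3 it was -1.38 (edgeR adjusted p = 0.00222), and Ltbp2 was called in every fit that left out 1 heart. The antisense gene D030025P21Rik covers 9.34% of Ltbp2's exon length, and reads from the 2 strands cannot be told apart where the counting ignores strand.

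**Figure D1:**
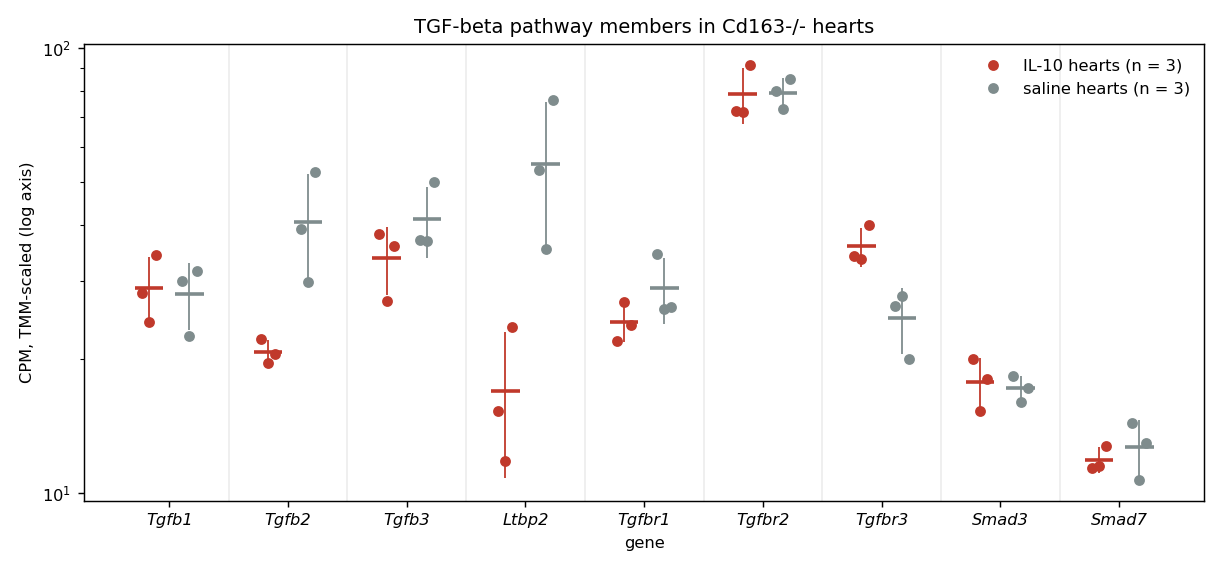
CPM of the 9 genes in each heart on a log axis, with IL-10 hearts (red) left of saline hearts (grey); each point is a heart, horizontal lines are means and bars are SD (n = 3 each). The groups are separate for Tgfb2 and Ltbp2, with IL-10 hearts lower, and for Tgfbr3, with IL-10 hearts higher.

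Of the receptors, Tgfbr3 was at 34.0, 33.6 and 40.1 CPM in IL-10 hearts, against 26.3, 27.8 and 20.0 CPM in saline hearts. Each IL-10 heart was above each saline heart, as for 15.7% of all tested genes, and saline heart 3 was the lowest. The means were 35.9 ± 3.60 CPM with IL-10 and 24.7 ± 4.15 CPM with saline (SD, n = 3 each), and the log2 fold change was 0.54 ± 0.14 (SE; edgeR adjusted p = 0.0140). The call was lost without saline heart 3, at a log2 fold change of 0.42 (edgeR adjusted p = 0.0648).
Tgfbr1, the type I receptor kinase, was at 22.0, 26.9 and 23.9 CPM in IL-10 hearts, against 34.5, 26.0 and 26.2 CPM in saline hearts. Only saline heart 1 stood clear of the rest, and the log2 fold change of -0.25 did not pass (edgeR adjusted p = 0.244).
Tgfbr2, the ligand-binding type II receptor, was at 72.4, 72.0 and 91.7 CPM in IL-10 hearts, against 80.2, 72.8 and 85.0 CPM in saline hearts. The groups overlapped, with a log2 fold change of -0.01 (edgeR adjusted p = 0.963).

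Neither SMAD gene passed the test in hearts. Smad3, which carries the signal into the nucleus, was at 20.0, 15.3 and 18.1 CPM in IL-10 hearts, against 18.4, 16.0 and 17.2 CPM in saline hearts, with a log2 fold change of 0.05 (edgeR adjusted p = 0.855). Smad7, the feedback inhibitor, was at 11.4, 11.5 and 12.8 CPM in IL-10 hearts, against 14.4, 10.7 and 13.0 CPM in saline hearts, with a log2 fold change of -0.09 (edgeR adjusted p = 0.735). For both genes the groups overlapped. The signs of the Tgfb1 and Smad3 values turned under some scalings and that of Tgfb1, Tgfbr2, Smad3 or Smad7 when single hearts were left out, all without a call.

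Levels of different genes were compared as CPM per kb of annotated exon, with all isoforms merged. These lengths were 5042 bases for Tgfb1, 5791 for Tgfb2 and 3383 for Tgfb3. The expressed isoforms are not known, so orders and shares between genes hold for these lengths and could differ with others. In IL-10 hearts the order from high to low was Tgfb3, Tgfbr2, Tgfb1, Tgfbr3, Tgfbr1, Tgfb2, Smad3, Smad7 and Ltbp2. Tgfb3 (9.97 ± 1.75 CPM per kb) and Tgfbr2 (9.61 ± 1.38) overlapped, both lay above Tgfb1 (5.74 ± 0.991), and Ltbp2 came last at 2.07 ± 0.745 (SD, n = 3). Tgfbr3 (5.49 ± 0.551) was above Tgfbr1 (3.71 ± 0.375) without overlap, whereas each of the genes from Tgfbr1 down overlapped its neighbour in the order. In saline hearts the order was Tgfb3, Tgfbr2, Tgfb2, Ltbp2, Tgfb1, Tgfbr1, Tgfbr3, Smad3 and Smad7. There Tgfb3 (12.2 ± 2.20 CPM per kb) was above Tgfbr2 (9.69 ± 0.751) in all hearts, and every gene from Tgfbr2 down overlapped the next. Ltbp2 thus ranked 9 of 9 with IL-10 and 4 of 9 with saline (6.72 ± 2.51 CPM per kb), and Tgfb2 ranked 6 with IL-10 and 3 with saline.

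The make-up of the 3 ligands differed accordingly. Tgfb2 made up 18.8 ± 1.99% of summed ligand CPM per kb in IL-10 hearts and 28.0 ± 2.60% in saline hearts, and the groups did not overlap. Tgfb1's share was 29.7 ± 2.67% with IL-10 and 22.6 ± 2.26% with saline, and Tgfb3's was 51.5 ± 2.66% with IL-10 and 49.5 ± 3.41% with saline. By merged exon length, Tgfb3 was thus the ligand with the largest share in both heart groups, an order that another length for Tgfb1 could change. The log2 ratio of Tgfb2 to Tgfb1 per kb lay between -0.93 and -0.51 in IL-10 hearts and between 0.19 and 0.54 in saline hearts, so its sign differed between all hearts of the 2 groups. Among the receptors, Tgfbr3 made up 29.2 ± 0.696% with IL-10 and 21.1 ± 3.65% with saline, Tgfbr2 made up 51.0 ± 2.33% with IL-10 and 54.3 ± 4.55% with saline, and Tgfbr1 the rest (SD, n = 3 each). These shares were not tested, since they restate the fitted levels.

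Some heart genes followed the members across the 6 libraries. Likeness was the root mean square difference of mean-centred log2 CPM over 9545 genes of at least 5 CPM, given as a description, since the hearts share group, depth and tissue make-up. Nearest to Ltbp2 were Fn1 (fibronectin, 0.142), Col1a1 (a type I collagen chain, 0.239) and Loxl3 (a lysyl oxidase of collagen crosslinking, 0.249), against a median of 0.962 over all genes compared. For Tgfb2 they were Lsp1 (a leukocyte actin-binding protein, 0.0906), Meox1 (a homeobox factor of activated fibroblasts, 0.103) and Rasa4 (a RAS GTPase-activating protein, 0.114), against a median of 0.549. Those 6 genes all fell in IL-10 hearts, at log2 fold changes from -0.91 for Lsp1 to -1.77 for Fn1. Their picking by likeness over the same hearts largely fixed this, so it is no separate result. Tgfb3 was nearest to Ltbp3 (0.0489), a binding protein of latent TGF-beta, and Glis2 (a zinc finger factor, 0.0585) was also among its nearest genes, against a median of 0.313. Tgfb1 was nearest to Tenm3 (a teneurin, 0.0425), Nup188 (a nuclear pore protein, 0.0588) and Icam1 (a leukocyte adhesion molecule, 0.0633), against a median of 0.279. The genes named here as near to Tgfb3 or Tgfb1 were not called, which again follows largely from how they were picked.

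Markers of several cell types differed between the heart groups beside Tgfb2 and Ltbp2. The 8 markers of activated fibroblasts summed to 509 to 714 CPM in IL-10 hearts and 1306 to 1766 CPM in saline hearts, none was at 0, and 6 of the 8 fell. General fibroblast markers (12 genes) summed to 3048 to 3616 CPM with IL-10 and 2728 to 2930 CPM with saline, with 3 that rose (Dpt, Dcn and Gsn) and 3 that fell (Col1a1, Col1a2 and Mfap5). Endothelial markers (10 genes) summed to 696 to 813 CPM with IL-10 and 785 to 949 CPM with saline, with 3 that fell. Cardiomyocyte markers (11 genes) summed to 37014 to 43128 CPM with IL-10 and 41786 to 50812 CPM with saline. Of these, 1 rose (Myl3) and 1 fell (Actc1), 7 were higher and 4 lower, and the median log2 fold change was 0.15. The sum leaned on Actc1, at a mean of 10212 CPM with IL-10 and 17702 CPM with saline. Macrophage markers (11 genes) summed to 999 to 1129 CPM with IL-10 and 729 to 1209 CPM with saline, with 7 higher and 4 lower. Of these, 1 fell (Cd68, means of 22.5 CPM with IL-10 and 34.3 CPM with saline, with overlapping groups). The largest part of the sum was Lyz2, at 429 CPM with IL-10 and 381 CPM with saline, not called.
Platelet and erythroid markers (7 genes, 6 tested) summed to 310 to 550.0 CPM with IL-10 and 570 to 1138 CPM with saline. Their median log2 fold change was -0.93. Hba-a1, Hbb-bs and Alas2 of red cells fell and Pf4 rose. Pf4 does not stand for platelets alone, since macrophage libraries held it (means of 86.8 CPM in knockout and 45.9 CPM in wild type) with Gp9 at 0. The platelet gene Ppbp was lower in IL-10 hearts (1.12 against 2.06 CPM) but not called. Smooth muscle and pericyte markers summed to 2985 to 3018 CPM with IL-10 and 3070 to 3600 CPM with saline, and 2 of 9 tested fell (Cspg4 and Pdgfrb). Most of that sum was Des, at a mean of 2084 CPM with IL-10 and 2449 CPM with saline, and Des was not called. Of the 9 tested, 4 were higher and 5 lower, so the sum gives no common direction for these cells. Endocardial and valve markers summed to 82.0 to 94.0 CPM with IL-10 and 94.9 to 137 CPM with saline, with 1 of 5 that fell (Cdh11). Mesothelial markers summed to 11.5 to 13.8 CPM with IL-10 and 14.0 to 25.4 CPM with saline, with 1 of 5 that fell (Krt18). Over all tested genes 6.86% rose and 6.7% fell. The part of these cell types in the members' differences was not tested.

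The wider pathway was read in 8 lists of named genes, chosen with earlier results of these data known. Genes known to be induced by TGF-beta were called in 1 direction: of 31 tested, 0 rose and 15 fell, against 6.86% and 6.7% of all tested genes, with a median log2 fold change of -0.57. None rose by DESeq2, by limma-voom or at an unadjusted edgeR p under 0.05 either (0 each). By smallest p these were Postn (periostin, -1.44 ± 0.15), Fn1 (-1.77 ± 0.25), Acta2 (smooth muscle actin of myofibroblasts, -1.02 ± 0.15) and Col1a1 (-1.34 ± 0.21; log2 fold change ± SE). Postn averaged 358 ± 71.4 CPM in IL-10 hearts and 973 ± 120 CPM in saline hearts (SD, n = 3 each; edgeR adjusted p = 2.56e-05). Between 13 and 18 of the list were called when single hearts were left out. Those that fell included Col1a1, Col1a2, Acta2, Postn and Cthrc1, which are also on the fibroblast lists above, so the 2 readings are not independent.

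Of the genes that store and activate latent ligand, 0 rose and 7 fell of 23, with a median of -0.20 (0 rose also by DESeq2, by limma-voom and at an unadjusted edgeR p under 0.05). They included Fbn1 (fibrillin-1, the scaffold of LTBPs, -0.96), Mmp14 (a membrane collagenase, -0.81), Plat (a plasminogen activator, -0.66) and Emilin1 (a matrix glycoprotein that restrains TGF-beta processing, -0.69). Without IL-10 heart 2, or without saline heart 3, 3 of this list were called. Latent TGF-beta binding protein genes other than Ltbp2, chosen after their values were seen, were not called: Ltbp1 at 26.6 ± 0.585 CPM with IL-10 and 25.7 ± 0.847 CPM with saline, Ltbp3 at 31.5 ± 4.71 CPM with IL-10 and 38.8 ± 5.38 CPM with saline, and Ltbp4 at 198 ± 23.2 CPM with IL-10 and 178 ± 18.7 CPM with saline (SD, n = 3 each).
Secreted antagonists and binding proteins held 1 gene that rose and 4 that fell of 9, with a median of -0.38. Bgn (biglycan, -0.99), Fstl1 (a follistatin-like glycoprotein, -0.69) and Fmod (fibromodulin, -1.54) fell, whereas Dcn (decorin, which binds TGF-beta, 0.47) rose. This count was 2 without IL-10 heart 2 or saline heart 3 and 3 without saline heart 1.

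The other 5 lists in hearts are set against 13.6% of all tested genes called. Of 15 other receptors and co-receptors, with a median of 0.01, Hjv (hemojuvelin, a BMP co-receptor, 0.71) rose, and Cd109 (a TGF-beta co-receptor, -0.96) and Eng (endoglin, an endothelial co-receptor, -0.40) fell, Eng with overlapping groups. Without IL-10 heart 1, IL-10 heart 2 or saline heart 2, 1 of these was called. Of 10 other ligands, with a median of -0.13, Gdf6 (a BMP-type ligand) fell, at 2.10 ± 0.983 CPM with IL-10 and 9.60 ± 4.64 CPM with saline (SD, n = 3 each; log2 fold change -2.19). Of 22 other SMADs and regulators, with a median of 0.12, Ppm1a (a SMAD phosphatase, 0.39) and Ep300 (a histone acetyltransferase co-activator, 0.37) rose. None was called without IL-10 heart 1, IL-10 heart 2, saline heart 1 or saline heart 3, and 1 without saline heart 2. Of 8 BMP-SMAD targets, with a median of 0.08, Id1 (an inhibitor of bHLH factors, 0.38) rose, and it was not called without IL-10 heart 1, IL-10 heart 2, saline heart 1 or saline heart 3. Of 16 SMAD-independent transducers, with a median of -0.04, 0 were called, also by DESeq2, by limma-voom and at an unadjusted edgeR p under 0.05, and the smallest p belonged to Map2k6 (a p38 kinase kinase, 0.75; edgeR adjusted p = 0.189).

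In Cd163-/- macrophages, 4 of the 9 genes rose (Tgfb3, Tgfbr2, Smad7 and Tgfb2), 0 fell and 5 did not pass. In the lower direction, 1 (Tgfb1) had an unadjusted edgeR p under 0.05, 1 (Tgfb1) was called by DESeq2 and 0 by limma-voom. Over all tested genes 26.4% were called, 13.1% higher and 13.3% lower. The median log2 fold change of the 9 genes was 0.38, against 0.01 over all tested genes. The split of called genes was 1817 higher and 1846 lower, against 2310 higher and 1403 lower with upper-quartile scaling and 2665 higher and 1220 lower with library size alone. The median of all genes was 0.13 with upper-quartile scaling and 0.19 with library size alone. The calls rest on 2 libraries a group: without knockout macrophages 1 only 734 genes were called and without knockout macrophages 2 only 1305, against 3663 with all libraries. Of the 9 genes, Tgfb3 was called in every fit that left out 1 library, and the other 3 were each lost in at least 2 of those 4 fits.

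Tgfb3 had 59.5 and 57.1 CPM in knockout macrophages, against 8.44 and 7.94 CPM in wild-type macrophages. These stand on 1195 and 1028 reads in the knockout libraries, against 142 and 125 reads in the wild-type libraries. Replicates lay close together and the groups far apart, and 35.3% of all tested genes were likewise higher in both knockout libraries. The means were 58.3 ± 1.71 CPM in knockout and 8.19 ± 0.348 CPM in wild type (SD, n = 2 each), a log2 fold change of 2.83 ± 0.13 (SE; edgeR adjusted p = 0.000438), or 7.11-fold. By p it ranked 17 of 13861 genes, and leaving out single libraries gave log2 fold changes of 2.78 to 2.87.
Tgfb2 was low in both genotypes, at 24.8 and 21.3 CPM in knockout macrophages, against 12.8 and 16.2 CPM in wild-type macrophages. The log2 fold change was 0.67 ± 0.18 (SE; edgeR adjusted p = 0.0390). It was not called without knockout macrophages 1 (0.56, edgeR adjusted p = 0.198), knockout macrophages 2 (0.76, 0.0975) or wild-type macrophages 1 (0.51, 0.0945).
Tgfb1 was at 234 and 278 CPM in knockout macrophages, against 404 and 330 CPM in wild-type macrophages. Both knockout libraries were below both wild-type libraries, as for 34.1% of all tested genes, and the log2 fold change of -0.52 ± 0.17 (SE) missed the threshold (edgeR adjusted p = 0.0679). It was called without wild-type macrophages 2 (-0.66, edgeR adjusted p = 0.0223) and by DESeq2 (adjusted p = 0.0335).

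Tgfb1 was the leading ligand per kb in both genotypes, with a smaller share in the knockout. It made up 70.4 ± 3.43% of summed ligand CPM per kb in knockout macrophages and 93.6 ± 1.24% in wild-type macrophages (SD, n = 2 each). Tgfb3's share was 24.0 ± 2.44% in knockout and 3.14 ± 0.276% in wild type. The sum of the 3 ligands was 72.0 ± 5.20 CPM per kb in knockout and 77.7 ± 10.1 in wild type, with overlapping groups.
Ltbp2 was at 102 and 75.6 CPM in knockout macrophages, against 86.5 and 90.0 CPM in wild-type macrophages. The knockout libraries lay on either side of the wild-type ones, with a log2 fold change of 0.01 (edgeR adjusted p = 0.974).

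**Figure D2:**
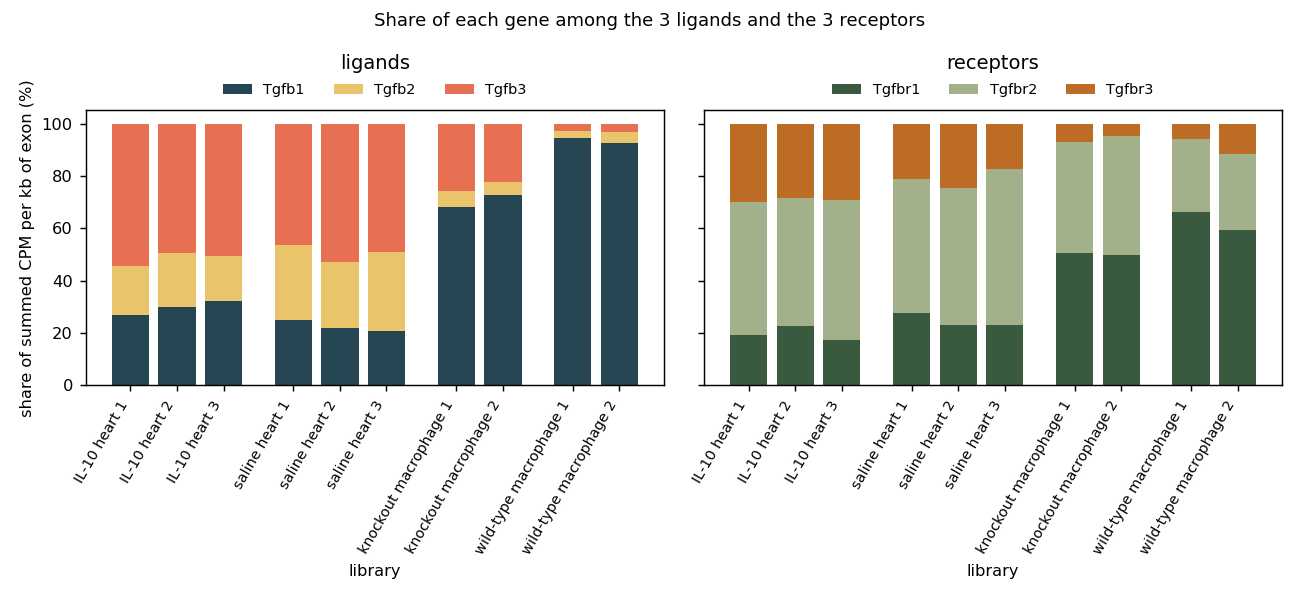
Share of each gene in the summed CPM per kb of the 3 ligands (left) and of the 3 receptors (right), as a stacked bar per library in percent. By merged exon length, Tgfb3 has the largest ligand share in hearts, where Tgfb2 has a smaller share with IL-10 (18.8%) than with saline (28.0%). In macrophages Tgfb1 leads, with 70.4% in knockout and 93.6% in wild type.

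Tgfbr2 had 255 and 277 CPM in knockout macrophages, against 137 and 105 CPM in wild-type macrophages. The groups were well apart, with means of 266 ± 15.5 CPM in knockout and 121 ± 22.4 CPM in wild type (SD, n = 2 each). The log2 fold change was 1.13 ± 0.16 (SE; edgeR adjusted p = 0.00720), or 2.19-fold. Its size held without knockout macrophages 1 (1.19) or 2 (1.06), but the adjusted p was then 0.0594 and 0.0566 by edgeR.
Tgfbr1 was at 244 and 242 CPM in knockout macrophages, against 262 and 174 CPM in wild-type macrophages. Both knockout libraries fell between the wild-type ones, and the log2 fold change was 0.16 (edgeR adjusted p = 0.604), but it was called without wild-type macrophages 1, at 0.48 (adjusted p = 0.0432).
Tgfbr3 was at 34.7 and 24.1 CPM in knockout macrophages, against 23.2 and 34.3 CPM in wild-type macrophages, so the groups overlapped (log2 fold change 0.03, edgeR adjusted p = 0.935).
Per kb, Tgfbr2 made up 43.8 ± 2.22% of the receptors in knockout macrophages and 28.3 ± 0.726% in wild-type macrophages. Tgfbr1's share was 50.2 ± 0.624% in knockout and 62.9 ± 4.87% in wild type (SD, n = 2 each).

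Smad7, the inhibitor of TGFBR1, had 18.5 and 12.9 CPM in knockout macrophages, against 8.26 and 9.41 CPM in wild-type macrophages. Both knockout libraries were higher but differed from each other, and the log2 fold change was 0.84 ± 0.22 (SE; edgeR adjusted p = 0.0406). It was not called without knockout macrophages 1 (0.55, edgeR adjusted p = 0.201) or wild-type macrophages 1 (0.74, 0.0789), nor by limma-voom (0.0521).
Smad3 had 44.6 and 48.0 CPM in knockout macrophages, against 34.9 and 36.3 CPM in wild-type macrophages. The groups did not overlap, but the log2 fold change of 0.38 ± 0.12 (SE) missed the threshold (edgeR adjusted p = 0.0579). It was called with upper-quartile scaling (0.49, edgeR adjusted p = 0.0271) and with library size alone (0.55, 0.0183).

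**Figure D3:**
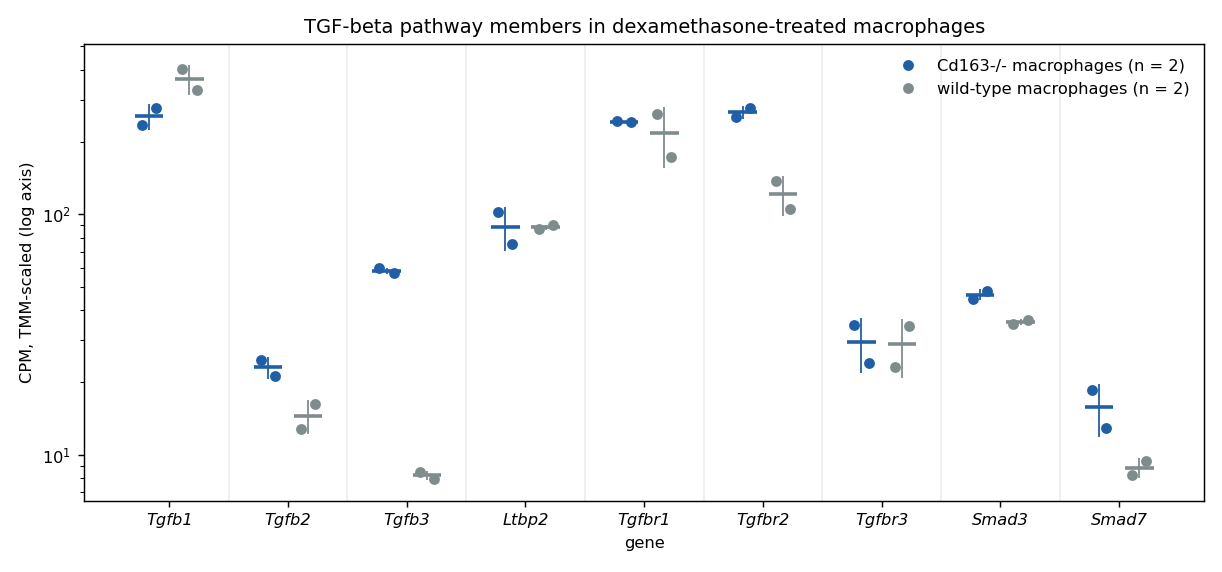
CPM of the 9 genes in each macrophage library on a log axis, with Cd163-/- libraries left of wild-type libraries; each point is a library, horizontal lines are means and bars are SD (n = 2 each). Tgfb3 shows the widest gap, at 59.5 and 57.1 CPM in knockout against 8.44 and 7.94 CPM in wild type.

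Per kb, knockout macrophages ran in the order Tgfb1, Tgfbr1, Tgfbr2, Tgfb3, Ltbp2, Smad3, Tgfbr3, Tgfb2 and Smad7. Neighbours did not overlap from Tgfb1 (50.8 ± 6.13 CPM per kb) through Tgfbr1 (37.2 ± 0.176), Tgfbr2 (32.4 ± 1.89) and Tgfb3 (17.2 ± 0.506) down to Tgfbr3, and the last 3 genes overlapped their neighbours. In wild-type macrophages the order was Tgfb1, Tgfbr1, Tgfbr2, Ltbp2, Smad3, Tgfbr3, Tgfb2, Tgfb3 and Smad7. There Tgfb1 (72.7 ± 10.4 CPM per kb), Tgfbr1 (33.3 ± 9.50) and Tgfbr2 (14.8 ± 2.74) were apart from their neighbours, and only Tgfb2 (2.51 ± 0.412) and Tgfb3 (2.42 ± 0.103) overlapped (SD, n = 2). Tgfb3 thus ranked 4 in knockout and 8 in wild type. By merged exon length, Tgfb1 led in macrophages and Tgfb3 in hearts. These values come from 2 tables scaled separately and stand side by side without a test.

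Markers of several other cell types differed between the macrophage groups beside Tgfb3, Tgfb2, Tgfbr2 and Smad7. Mesothelial markers (11 genes, the lining cells of the peritoneum) summed to 378 to 502 CPM in knockout macrophages and 118 to 187 CPM in wild-type macrophages, with 8 that rose and 0 that fell, and none was at 0. Fibroblast markers (12 genes, 9 tested) summed to 3216 to 3717 CPM in knockout and 1576 to 2278 CPM in wild type. Of these, 7 rose, whereas Pdgfra fell (log2 fold change -1.32). Most of that sum was Col1a1 (means of 1003 CPM in knockout and 355 CPM in wild type), Col1a2 (1439 and 651 CPM) and Dcn (601 and 506 CPM, not called). Tcf21, Dpt and Pi16 had at most 15 reads in any library and were not tested. Activated-fibroblast markers summed to 437 to 732 CPM in knockout and 180 to 229 CPM in wild type, and most of that sum was Acta2, at a mean of 546 CPM in knockout and 195 CPM in wild type. Of these 8 genes 3 were tested and Acta2 and Postn rose, Cilp was at 0 in every library, and Cthrc1, Comp, Thbs4 and Meox1 had too few reads to test. Macrophage markers (11 genes) summed to 25732 to 26969 CPM in knockout and 25922 to 31476 CPM in wild type, with 3 that rose and 1 that fell.
Neutrophil markers (7 genes, 3 tested) summed to 107 to 163 CPM in knockout and 191 to 352 CPM in wild type. S100a8 (log2 fold change -2.58) and Csf3r (-1.71) fell and Mmp8 (1.32) rose. Most of the sum was Csf3r (means of 71.3 CPM in knockout and 232 CPM in wild type) and Mmp8 (61.2 and 24.6 CPM). S100a9, Ly6g and Cxcr2 had at most 1 read in any library and Retnlg had 0, so the sum does not show neutrophils. Endothelial markers summed to 58.1 to 73.8 CPM in knockout and 79.3 to 95.5 CPM in wild type, with none of 6 tested called. Endocardial and valve markers summed to 237 to 281 CPM in knockout and 144 to 158 CPM in wild type, with 2 of 4 that rose (Cdh11 and Nfatc1). Most of that sum was Cdh11, at a mean of 194 CPM in knockout and 107 CPM in wild type. Hapln1 was at 0 in every library and Tmem100 had at most 6 reads. Platelet and erythroid markers summed to 74.9 to 103 CPM in knockout and 37.8 to 57.3 CPM in wild type, with 1 of 2 that rose (Pf4). Nearly all of that sum was Pf4, and Gp9 was at 0 in every library. Mast cell and eosinophil markers were near 0, at 3.54 to 3.94 CPM in knockout and 1.59 to 2.38 CPM in wild type, with 1 of 2 that rose (Siglecf). The part of these cells in the members' differences was not tested.

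**Figure D4:**
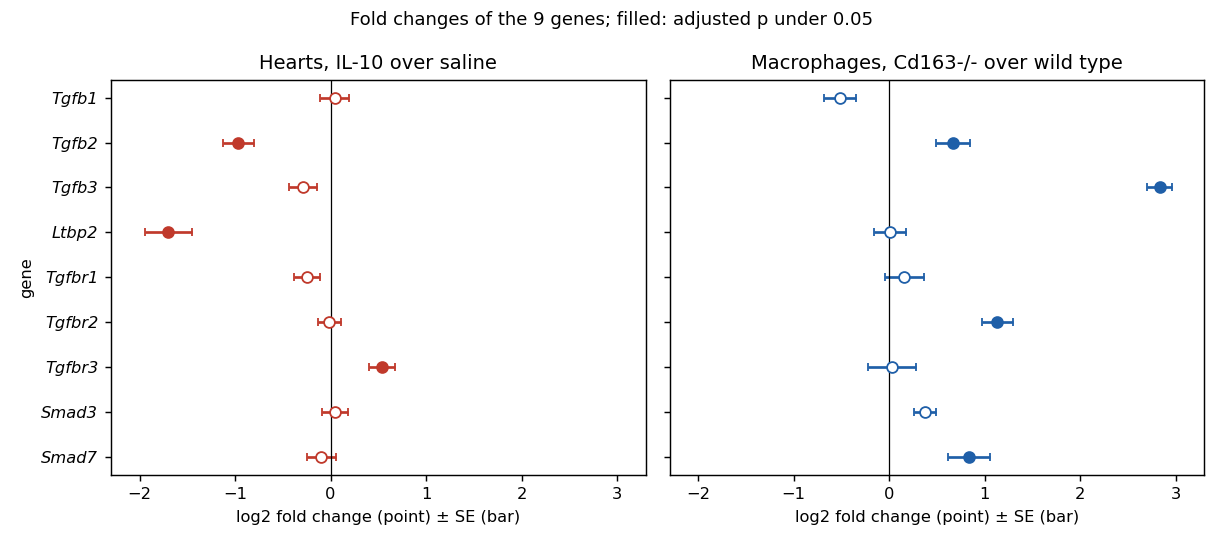
Log2 fold change (points) with SE (bars) of the 9 genes, for IL-10 over saline in hearts (left) and Cd163-/- over wild type in macrophages (right); filled points passed an adjusted p of 0.05. Tgfb2 lies at -0.97 in hearts and 0.67 in macrophages, Ltbp2 at -1.70 and 0.01, and Tgfb3 at -0.29 and 2.83.

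The same 8 lists in macrophages are set against 26.4% of all tested genes called, 13.1% higher and 13.3% lower. Of 31 tested genes known to be induced by TGF-beta, 11 rose and 4 fell, with a median log2 fold change of 0.90. By smallest p, Postn (2.02) and Tgfbi (a secreted adhesion protein, 1.34) rose, while Junb (an AP-1 subunit, -1.56) and Jag1 (a Notch ligand, -0.83) fell. Tgfbi averaged 93.6 ± 14.8 CPM in knockout and 37.0 ± 2.27 CPM in wild type (SD, n = 2 each; edgeR adjusted p = 0.00330). Only 5 of the list were called without knockout macrophages 1, and 10 without knockout macrophages 2. Those that rose included Col1a1, Col1a2, Acta2 and Postn, which are also on the fibroblast lists above.

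Among 22 genes of ligand storage and activation, 5 rose and 4 fell, with a median of 0.33. Itgb5, a beta chain of ligand-activating integrins, was at 352 ± 14.4 CPM in knockout and 61.6 ± 15.3 CPM in wild type (SD, n = 2 each; log2 fold change 2.52, edgeR adjusted p = 0.00125). Lrrc32, which tethers latent ligand to the cell surface, rose (log2 fold change 2.75) at low levels (2.10 ± 0.0613 CPM in knockout and 0.307 ± 0.0147 CPM in wild type). The matrix proteases Mmp14 (-1.81) and Mmp9 (-3.11) fell. This count was 2 without knockout macrophages 1 and 5 without knockout macrophages 2.
Of 23 other SMADs and regulators, 3 rose and 3 fell, a share near that of all tested genes, with a median of 0.06. Smad2, the partner of Smad3, fell to 59.9 ± 1.38 CPM in knockout, against 114 ± 9.08 CPM in wild type (log2 fold change -0.93, edgeR adjusted p = 0.00484). Of the related SMAD repressors, Ski rose (1.10) and Skil fell (-0.97), and Pmepa1, a membrane protein that sequesters receptor SMADs, rose (1.85). Without knockout macrophages 1, 3 of the list were called.

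Of 14 other receptors, 3 rose and 3 fell, with a median of 0.20. Acvr1b (the activin type I receptor, -1.57) and Acvr2a (an activin type II receptor, -0.91) fell, and Nrp1 (a co-receptor, 0.87) and Bmpr1a (a BMP type I receptor, 0.75) rose. The count was 1 without knockout macrophages 1 and 2 without knockout macrophages 2. Of 11 other ligands, 3 rose and 2 fell, with a median of 0.75: Gdf6 (3.46) and Inhbb (an activin chain, 3.22) rose, and Gdf3 (-2.15) and Bmp6 (-1.98) fell, and 1 was called without knockout macrophages 1. Of 9 antagonists, with a median of 0.45, Bgn (1.09) and Chrd (chordin, 2.66) rose and 0 fell, also by DESeq2, by limma-voom and at an unadjusted edgeR p under 0.05. None of these was called without knockout macrophages 1, and 1 without wild-type macrophages 2. Of 8 BMP-SMAD targets, with a median of 0.76, Id4 (3.52) and Hey1 (1.85) rose and Id2 (-0.70) fell, and 0 were called without knockout macrophages 1. Of 16 SMAD-independent transducers, with a median of -0.16 and again a share of calls near that of all tested genes, Map2k6 (1.75) rose, and Mapk8 (JNK1, -0.59), Daxx (-0.75) and Rock1 (-0.44) fell, with 0 called without knockout macrophages 1 or 2.

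**Figure D5:**
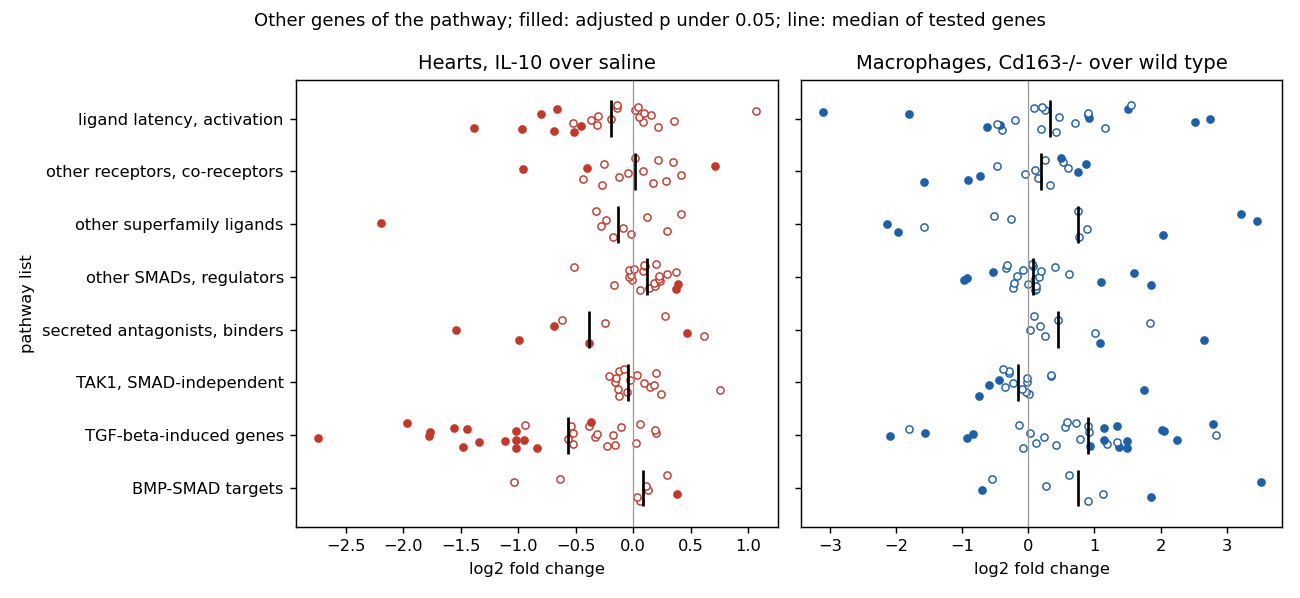
Log2 fold change of each tested gene (points) of the 8 pathway lists in hearts (left, IL-10 over saline) and macrophages (right, Cd163-/- over wild type), with each list's median as a vertical line; filled points passed an adjusted p of 0.05. The genes known to be induced by TGF-beta have medians of -0.57 in hearts and 0.90 in macrophages.

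Several members share sequence with other annotated genes in GENCODE M21 (GRCm38), used here for gene lengths and positions. Tgfb2 (chromosome 1, 186622792 to 186705989) shares 2.14% of its exon length with the opposite-strand Gm29491. Tgfb3 (chromosome 12, 86056745 to 86079041) shares 4.82% with Gm37804 and 7.6% with Gm48008, both on the opposite strand, and Tgfbr3 (chromosome 5, 107106570 to 107289629) shares 4.54% with Gm43422 on its own strand. Ltbp2 (chromosome 12, 84783212 to 84876532) and Tgfbr2 (chromosome 9, 116084293 to 116175360) complete the called genes with a position given here. Whether the deposited counts split reads over these overlaps is not given in the sources used here.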

How the data were processed

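Polyadenylated RNA was sequenced from 6 hearts and 4 macrophage libraries. The deposited values are raw counts per Ensembl gene in 1 table of hearts and 1 of macrophages. HISAT2 2.2.1 and featureCounts are named in the submitters' processing notes, which list both GRCm39 and mm10. Build, annotation and strand setting of the counts were not given in the sources used here, so exon lengths (all annotated isoforms merged) and positions come from GENCODE M21 and promoter windows from RefSeq. Libraries were grouped by their labels. Each table was fitted by itself with edgeR 4.0.16 (R 4.3.3): filterByExpr with a minimum count of 10 and a total of 15, TMM scaling, quasi-likelihood test, and Benjamini-Hochberg adjustment over all tested genes. CPM used TMM-scaled library sizes. The fits were tested on simulated data with 200 changed genes. Alternatives were other scalings and filters, DESeq2 1.42.0, limma-voom (limma 3.58.1), a replicate block and each library left out. The members, lists and rules were chosen with earlier results of these data known. Of each pathway list the text names up to 4 called genes with the smallest p, or the 1 with the smallest p where none was called. Same-group libraries differed beyond sampling noise (chi-square per degree of freedom 10.6 to 52.5). Counts of reads without molecular identifiers carry more error than counting alone. Of the genes nearest to Tgfb3 in hearts 1 is not reported here.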

Additional observations from a re-analysis of the deposited data

How the results depend on the processing

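Of the members called in hearts, Tgfb2, Ltbp2 and Tgfbr3 were called under all 9 other settings that kept all hearts, and Tgfb3 and Tgfbr2 were called under all such settings in macrophages. With library size alone, 549 genes were higher in IL-10 hearts and 1220 lower in knockout macrophages. Mean CPM in knockout and wild-type macrophages was then 62.0 and 7.71 for Tgfb3 and 49.2 and 33.5 for Smad3, and it was 258.5 for Tgfbr1 and 282 for Tgfbr2 in knockout and 83.0 for Ltbp2 in wild type. Leaving out single hearts gave 897 to 1968 called genes (450 to 1082 higher, 447 to 1012 lower), with 897 without IL-10 heart 2, 1012 without saline heart 1 and 1147 without saline heart 3, and 2 to 3 called members. Leaving out single macrophage libraries gave 734 to 3811 called genes (360 to 1838 higher, 374 to 1973 lower) and 1 to 5 called members.

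Signs turned only for members that were not called in the fit of all libraries, and the cause was not tested. In hearts Tgfb1 was at -0.0038 with upper-quartile scaling and -0.0166 with library size alone, and its log2 fold change ran from -0.0885 to 0.155 when single hearts were left out. Smad3 was at -0.0078 with library size alone and ran from -0.0371 to 0.148, Tgfbr2 ran from -0.124 to 0.0534 and Smad7 from -0.201 to 0.0032. In macrophages Ltbp2 was at -0.00887 by limma-voom and ran from -0.222 to 0.197, Tgfbr3 from -0.254 to 0.339 and Tgfbr1 from -0.110 to 0.483.

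Same-numbered hearts did not deviate together, with correlations of -0.179, 0.0421 and 0.0034, so their numbers were not taken as pairs. In macrophages the correlation was -0.113 for same numbers and 0.113 for crossed numbers. With 2 libraries a group these values mirror each other by construction and cannot show whether the libraries are paired. The macrophages were likewise fitted without pairs. A replicate block left 3 called members in hearts, with 1523 called genes, and 2 in macrophages, with 2656 called genes, where Tgfb2 (adjusted p = 0.0701) and Smad7 (adjusted p = 0.0704, both edgeR) were no longer called and Ltbp2 was at -0.00704. Pairing the macrophage numbers crosswise, an alternative added after the data were seen, gave 4595 called genes and 5 called members.

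Without a filter on low counts 2248 heart genes and 5156 macrophage genes were called, and the macrophage lists rose to 14 calls for ligand storage, 9 for other ligands, 4 for antagonists, 25 for TGF-beta-induced genes and 6 for BMP-SMAD targets. In hearts the 1 call among BMP-SMAD targets was lost with upper-quartile scaling, library size alone, DESeq2 and the block. Depth limits named genes under 10 CPM in a group: Tgfb3, Smad7, Postn, Plat and Pmepa1 in wild-type macrophages, Mmp9 and Bmp6 in knockout macrophages, Inhbb, Gdf3, Hey1, Map2k6, Lrrc32, Chrd and Id4 in both, Gdf6 in wild-type macrophages and both heart groups, and Fmod, Cd109 and Map2k6 in both heart groups, beside markers.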

Other observations

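Several genes around the pathway were called in both tables, which share no libraries, and this was noticed after the values were seen. Of 127 pathway-list genes tested in both, 11 were called in both: 9 fell in IL-10 hearts and rose in knockout macrophages, 2 fell in both, and none rose in hearts. Over all 12375 genes tested in both, 516 were called in both, of which 146 fell in hearts and rose in macrophages, 85 did the reverse, 157 rose in both and 128 fell in both. Gdf6 had a log2 fold change of -2.19 ± 0.37 in hearts and 3.46 ± 0.39 in macrophages, Postn -1.44 ± 0.15 and 2.02 ± 0.21, Plat -0.66 ± 0.15 and 1.51 ± 0.23, and Bgn -0.99 ± 0.15 and 1.09 ± 0.25 (± SE; IL-10 over saline, then Cd163-/- over wild type). Mmp14, at -0.81 in hearts and -1.81 in macrophages, and Itgav, an integrin alpha chain of ligand activation at -0.46 and -0.43, were the genes that fell in both. Of the 9 members, Tgfb2 was called in both, lower in IL-10 hearts and higher in knockout macrophages. The 9 that moved in opposite directions were Gdf6, Postn, Plat, Bgn, Acta2, Adam12, Col1a1, Col1a2 and Col3a1. Of these, Postn, Acta2, Col1a1 and Col1a2 are also on the fibroblast marker lists, and the part of those cells was not tested.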
